A study of Mus musculus with 7 samples.

Results

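The genes described here are 10 transcription factors of the erythroid and megakaryocyte lineages: Gata1, Gata2, Klf1, Tal1, Gfi1b, Nfe2, Zfpm1, Fli1, Runx1 and Lmo2. They were chosen by symbol from a count table of 35976 genes, all 10 were found in it, and all 10 passed the filter on low counts that left 14679 genes for testing. RNA came from lineage-negative cells of C57BL/6 mouse fetal liver at embryonic stage E14.5, the progenitor fraction left after magnetic removal of cells with markers of mature lineages. All embryos were CD45.2(+) and carried Brd9 alleles flanked by loxP sites (Brd9fl/fl). The 3 control libraries had no recombinase, and the 4 knockout libraries also carried Vav1-iCre, a recombinase driven by the promoter of a gene active across blood cells. All 4 knockout libraries and 0 control libraries carried it, so effects of the recombinase and of Brd9 loss cannot be told apart. Whether each library holds RNA of 1 embryo or of several is not stated in the labels. The p-values therefore reflect variation among these samples alone, part of which could be technical.

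GATA1 is the main activator of red cell and platelet genes, and it works with the zinc finger cofactor encoded by Zfpm1 (Friend of GATA). In progenitors GATA2 occupies many of the same sites first and is replaced there by GATA1 as red cells form, a handover known as the GATA switch. TAL1, a basic helix-loop-helix factor, binds DNA beside the GATA factors in a complex bridged by LMO2 and LDB1. KLF1 drives globin and membrane genes on the erythroid side, while FLI1 and RUNX1 drive megakaryocyte genes, and KLF1 and FLI1 are known to oppose each other.

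Sequence upstream of a transcript start is shown for the pair of factors whose knockout and control libraries did not overlap (Zfpm1 and Gata1) and for the pair whose levels followed Gata1 most closely over the libraries among the other members (Gfi1b and Klf1). Each window holds the 250 bases before a transcript start in the RefSeq promoter table (GRCm38.p6), read 5′ to 3′ on the gene's strand. For Gfi1b and Klf1 that start is the outermost start of the RefSeq gene. For Gata1 and Zfpm1 it is an internal start, since the RefSeq genes begin farther upstream, at 7976663 (minus strand) and 122281856 (plus strand), and both windows lie inside them. The Zfpm1 window ends at the base before the GENCODE start of the gene. Capitals mark CACCC, the core of the KLF motif, and the GATA motifs AGATAA and TGATAA, on either strand. The windows lie at chr8:122281891-122282140 on the plus strand (Zfpm1), chrX:7967911-7968160 on the minus strand (Gata1), chr2:28621983-28622232 on the minus strand (Gfi1b) and chr8:84901732-84901981 on the plus strand (Klf1).
Zfpm1: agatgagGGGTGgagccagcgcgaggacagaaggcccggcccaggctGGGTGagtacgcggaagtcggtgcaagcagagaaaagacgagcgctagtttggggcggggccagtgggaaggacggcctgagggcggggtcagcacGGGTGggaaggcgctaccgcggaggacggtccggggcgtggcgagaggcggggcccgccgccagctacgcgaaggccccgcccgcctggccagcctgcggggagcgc
Gata1: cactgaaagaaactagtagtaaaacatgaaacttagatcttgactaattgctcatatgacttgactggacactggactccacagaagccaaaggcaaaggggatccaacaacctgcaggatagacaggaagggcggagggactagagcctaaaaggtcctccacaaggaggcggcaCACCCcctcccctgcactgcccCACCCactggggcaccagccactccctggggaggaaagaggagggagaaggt
Gfi1b: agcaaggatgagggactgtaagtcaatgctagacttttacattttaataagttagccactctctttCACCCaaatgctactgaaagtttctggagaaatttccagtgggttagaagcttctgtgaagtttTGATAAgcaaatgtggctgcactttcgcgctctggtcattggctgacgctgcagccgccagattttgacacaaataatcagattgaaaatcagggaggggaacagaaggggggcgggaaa
Klf1: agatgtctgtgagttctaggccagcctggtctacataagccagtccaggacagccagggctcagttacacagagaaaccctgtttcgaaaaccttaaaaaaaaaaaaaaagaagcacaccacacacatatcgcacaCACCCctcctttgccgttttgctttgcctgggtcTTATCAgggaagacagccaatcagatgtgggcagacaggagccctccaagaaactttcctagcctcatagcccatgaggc

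CACCC matched 3 times in the Zfpm1 window, 2 times in the Gata1 window and 1 time each in those of Gfi1b and Klf1. It is a common string, found in 52.0% of all 32851 promoter windows of the same length. TGATAA matched 1 time each in Gfi1b and Klf1 and is in 7.94% of all windows, and AGATAA, in 9.99% of all windows, matched in none of these 4 and 1 time in a Tal1 window. Of the other strings searched, also on both strands, CANNTG (the E-box, in 66.2% of all windows) matched 1 time in Gata1, 2 times in Gfi1b and 1 time in Klf1. AGGAAG (ETS factors, 29.5%) matched 1 time in Gata1, TGTGGT (RUNX factors, 14%) 1 time in Klf1, and TGANTCA (NF-E2, 6.75%) in none of the 4. The motif TGATAA was added after the sequences had been read. RefSeq windows were matched for 7 of the 10 factors, 10 windows in all, since Gata2, Tal1 and Runx1 have 2 each. The Gata2 windows held 1 CACCC match between them and no GATA match. A match is a description of letters and not a binding site.

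Brd9, the deleted gene, fell to 34.7% of control, and its level in every library stood on the side its label gives. Total counts per library ran from 18748885 to 23571878. Control replicate 2 stood apart from the other controls in the lineage genes below: its 31 erythroid genes summed to 5540 CPM (a gene's share of its library's scaled read total), against 8596 and 8845 CPM in control replicates 1 and 3. Xist, which marks cells with an inactive X chromosome, had 740 to 802 CPM in control replicates 1 and 3 and knockout replicate 2 and at most 0.373 CPM in the other libraries. Knockout replicate 3 held 73 reads of the T cell gene Cd3e, which had 0 reads elsewhere. Of 10 markers of mature lineages, 6 were too low to test, among them Cd3e, Cd8a, Cd79a, Ly6g and Klrb1c. The 14 hepatocyte genes summed to between 11163 and 25182 CPM, so RNA of liver cells was present in this fraction. In such bulk samples, fewer cells of a type and less RNA per cell cannot be told apart.

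None of the 10 factors passed edgeR's quasi-likelihood test at a Benjamini-Hochberg adjusted p under 0.05, a threshold that 0.559% of all tested genes passed. Those 82 genes were 2 higher in the knockouts (0.0136%) and 80 lower (0.545%), and their number fell to 20 without control replicate 3 and to 21 without knockout replicate 2. At an unadjusted p under 0.05 there were 3 of the 10, all higher in the knockouts, namely Zfpm1, Gata2 and Gata1, and 0 were lower. At that level 10.9% of all tested genes stood, 3.95% higher and 6.90% lower. DESeq2 called 1 factor, Zfpm1, as higher, where it called 2.30% of its tested genes (0.334% higher and 1.97% lower), and limma-voom called 0. The median log2 fold change was 0.083 over the 10 factors and 0.011 over all tested genes, with 5 factors estimated higher and 5 lower. The groups did not overlap for 2 of the 10, Zfpm1 and Gata1, both higher in the knockouts. Groups did not overlap for 11.2% of all tested genes, 4.38% higher and 6.81% lower. In simulated counts for this comparison the test recovered 37.2% of genes changed 1.5-fold and 80.4% of genes changed 2-fold.

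**Figure D1:**
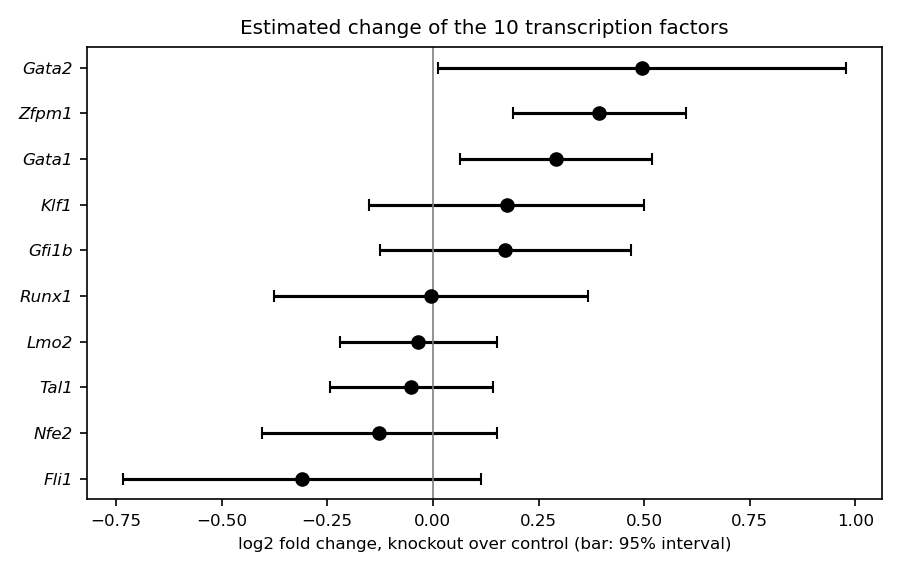
Estimated log2 fold change of each factor, knockout over control (x axis), with its 95% interval from the edgeR fit to 3 control and 4 knockout libraries. The intervals of Gata2, Zfpm1 and Gata1 lie above 0 before adjustment for the number of genes tested, and those of the other 7 factors include 0.

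Zfpm1 had the smallest p of the 10. It had 383, 319 and 316 CPM in the controls and 427, 449, 459 and 448 CPM in the knockouts. All knockouts lay above every control, and they lay closer together than the controls did. The means were 339 ± 38 CPM (SD, n = 3) and 446 ± 14 CPM (SD, n = 4), a 1.31-fold difference. The log2 fold change was 0.39 (SE 0.09, 95% interval 0.19 to 0.60). Its edgeR unadjusted p was 0.0018 and its adjusted p was 0.114. An exact two-sided permutation test of the group labels gave p = 0.0286, the smallest that 3 against 4 libraries allow. DESeq2 gave an adjusted p of 0.0075 for the same counts, and the authors' deposited table lists Zfpm1 at a log2 fold change of 0.39 with an adjusted p of 0.0078. The gene lies on chromosome 8 from 122282141 to 122337251 on the plus strand (GENCODE M21, GRCm38).

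Gata1, the partner of the Zfpm1 protein, had 177, 145 and 169 CPM in the controls and 192, 209, 223 and 179 CPM in the knockouts. Every knockout was above every control, with knockout replicate 4 less than 2 CPM above control replicate 1. The log2 fold change was 0.29 (SE 0.10, 95% interval 0.06 to 0.52), a 1.22-fold difference that did not pass the edgeR test (unadjusted p = 0.017, adjusted p = 0.329). The exact two-sided permutation test gave p = 0.0571. Without control replicate 2, the lowest library, the log2 fold change was 0.21 (adjusted p = 0.709). Gata1 lies on chromosome X from 7959260 to 7978071 on the minus strand, and the labels give no embryo sex. In the 3 libraries with Xist, the controls averaged 173 CPM and the knockout had 209 CPM. In the 4 libraries without it, the only control, replicate 2, had 145 CPM and the knockouts averaged 198 CPM. With the Xist level as a covariate the log2 fold change was 0.37 (edgeR unadjusted p = 0.011, adjusted p = 0.357). Zfpm1 was also higher in the knockouts within each of these sets, at 449 against 350 CPM with Xist and 445 against 319 CPM without it.

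Gata2 had 51.8, 88.5 and 47.0 CPM in the controls and 68.2, 95.4, 92.4 and 96.0 CPM in the knockouts. Control replicate 2 lay within the knockout range, and the other controls lay below every knockout. Its log2 fold change of 0.49 was the largest of the 10 (SE 0.21, 95% interval 0.01 to 0.98, edgeR unadjusted p = 0.046, adjusted p = 0.451), and the exact two-sided permutation test gave p = 0.171. Leaving out control replicate 2 moved the Gata2 estimate most, to a log2 fold change of 0.83 (edgeR unadjusted p = 3.95e-04, adjusted p = 0.076). It was 0.38 without control replicate 1 and 0.33 without control replicate 3 (edgeR unadjusted p = 0.147 and 0.168). Without knockout replicates 1, 2, 3 and 4 in turn, the edgeR unadjusted p was 0.0234, 0.0935, 0.0773 and 0.0946. Within the libraries with Xist the controls averaged 49.4 CPM and the knockout had 95.4 CPM. Without Xist the control had 88.5 CPM and the knockouts averaged 85.5 CPM. That control is control replicate 2, so among the controls Xist status and this library cannot be told apart. Gata2 (chromosome 6, 88193891 to 88207032) is also a factor of stem cells, mast cells and blood vessel lining. Summed over 13 stem cell genes the level was 435 to 629 CPM in the controls, against 337 to 479 CPM in the knockouts, with control replicate 2 the highest. Kit made up the largest part of each sum, with 267, 313 and 301 CPM in the controls and 160, 204, 202 and 212 CPM in the knockouts. Its adjusted p was 0.056 with edgeR and 2.61e-04 with DESeq2. The median log2 fold change of the 13 was 0.0023, with 7 estimated higher and 6 lower. Without control replicate 2 that median was 0.39, with 11 higher. The sums over 11 mast cell and basophil genes were 98.0 to 182 and 67.1 to 150.2 CPM, and those over 15 endothelial genes 243 to 372 and 227 to 282 CPM, again with control replicate 2 the highest in each. Their part in the Gata2 level was not tested.

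**Figure D2:**
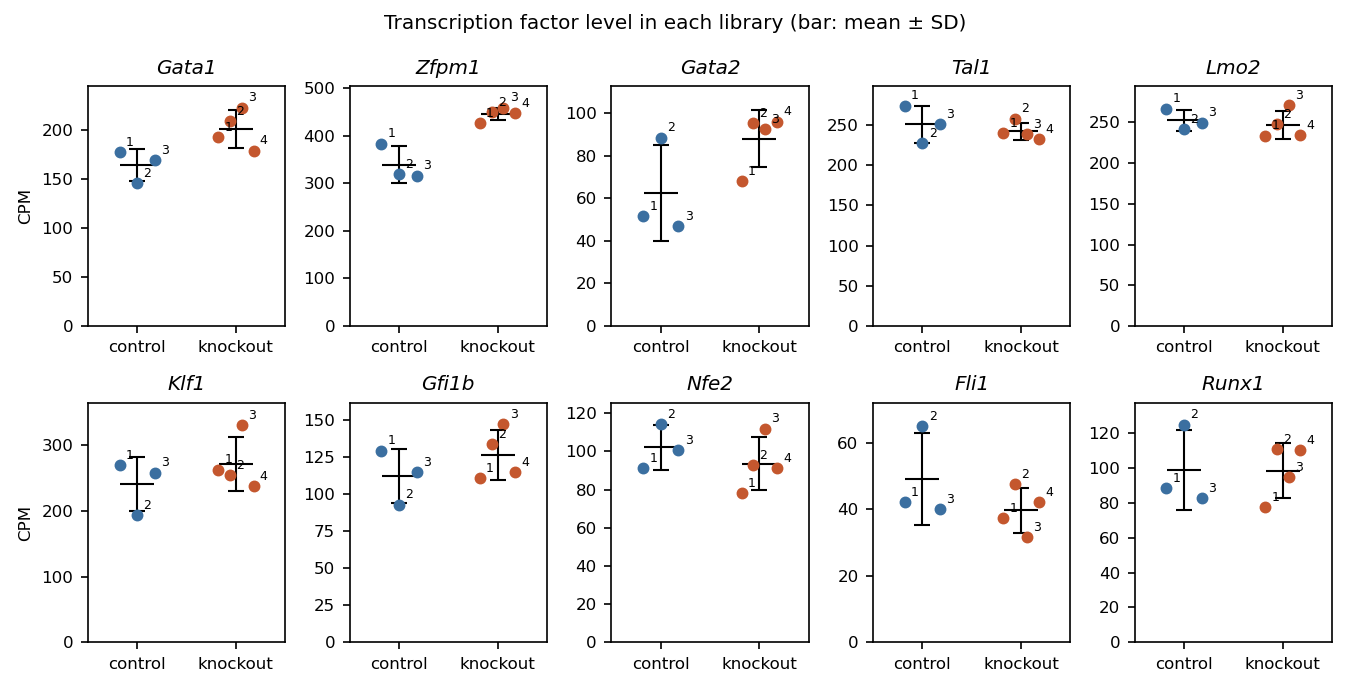
Level of each factor in CPM (y axis, from 0) in the 3 control and 4 knockout libraries; points are single libraries numbered by replicate, and bars give the mean ± SD. All knockouts stand above all controls for Gata1 and Zfpm1, and control replicate 2 stands high for Gata2, Fli1, Runx1 and Nfe2 and lowest of the 7 libraries for Gata1, Klf1, Gfi1b and Tal1.

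The ratio of Gata1 to Gata2, per kb of exon, was computed for each library. Its log2 was 2.92, 1.86 and 3.0 in the controls, against 2.64, 2.28, 2.41 and 2.04 in the knockouts, in replicate order. The groups overlapped, and control replicate 2 had the lowest ratio of all 7 libraries.

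Tal1 and Lmo2, the core of the complex that binds beside GATA factors, varied least of the 10. Tal1 had 274, 227 and 251 CPM in the controls and 240, 258, 239 and 232 CPM in the knockouts, and the knockouts lay inside the control range. The Tal1 log2 fold change was -0.05, with a 95% interval from -0.24 to 0.14. Lmo2, which bridges TAL1 to the GATA factor, had 267, 242 and 250 CPM in the controls and 234, 248, 271 and 234 CPM in the knockouts. The Lmo2 log2 fold change was -0.03, with a 95% interval from -0.22 to 0.15. The highest library exceeded the lowest 1.21-fold for Tal1 and 1.16-fold for Lmo2. Both intervals leave out a change of the size estimated for Zfpm1.

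Genes for the other proteins of this complex gave no call among 11 tested (edgeR, with 0 at an unadjusted p under 0.05, and 0 by DESeq2 or limma-voom), at a median log2 fold change of 0.083. Ldb1, which holds the complex together, had 358 ± 28 CPM in the controls against 362 ± 59 CPM in the knockouts. Tcf3, the helix-loop-helix partner of TAL1, had 334 ± 28 and 354 ± 25 CPM. Cbfa2t3, a corepressor of the complex, had 89.8 ± 13 and 102 ± 12 CPM, and Lyl1, a close relative of TAL1, had 120 ± 10 and 131 ± 11 CPM. Of 7 genes for corepressor subunits 0 passed (edgeR, 1 higher unadjusted, 0 by DESeq2 or limma-voom). That gene was Mbd3, a subunit of the NuRD complex, with 160 ± 3 CPM in the controls against 189 ± 15 CPM in the knockouts (edgeR adjusted p = 0.299). Kdm1a, the histone demethylase recruited by GFI1B, had 99.3 ± 9.6 and 111 ± 5 CPM.

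Klf1, the erythroid Krüppel-like factor, had 270, 193 and 258 CPM in the controls and 263, 254, 331 and 237 CPM in the knockouts. The groups overlapped, control replicate 2 was the lowest library and knockout replicate 3 the highest. Its log2 fold change was 0.18, with a 95% interval from -0.15 to 0.50. Gfi1b, a repressor needed for both lineages, had 129, 92.7 and 115 CPM in the controls and 111, 133, 147 and 114 CPM in the knockouts. It overlapped between groups in the same way, with the same lowest and highest library, at a log2 fold change of 0.17 (95% interval -0.13 to 0.47). Without control replicate 2 the estimates fell to 0.039 for Klf1 and 0.050 for Gfi1b.

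Genes that GATA1, KLF1 and their partners are known to serve in red cells were measured in the same libraries. Of 31 tested erythroid genes 0 passed the edgeR test (9 higher and 2 lower unadjusted, 0 by limma-voom), while DESeq2 called 5 higher and 2 lower. The median log2 fold change was 0.13, with 24 estimated higher, and it was -0.0050 without control replicate 2, with 15 higher. Hba-a1 and Hba-a2 are near-identical copies whose reads the counting could have split. Alas2, which starts haem synthesis in red cells, had 17.6, 8.98 and 21.7 CPM in the controls and 26.5, 31.6, 33.7 and 29.2 CPM in the knockouts. Car1, a carbonic anhydrase, had 17.9 ± 1.8 CPM against 29.2 ± 6.2 CPM, and Trim10, a ubiquitin ligase family member of maturing red cells, had 31.5 ± 7.2 against 47.1 ± 4.9 CPM. For Alas2, Car1 and Trim10 all knockouts lay above all controls.

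Fli1, an ETS factor of megakaryocytes, had 42.2, 65.2 and 40.2 CPM in the controls and 37.4, 47.6, 31.7 and 42.2 CPM in the knockouts. The groups overlapped, with control replicate 2 the highest library and knockout replicate 3 the lowest. The Fli1 log2 fold change was -0.31 (95% interval -0.73 to 0.11, edgeR adjusted p = 0.613), and it was -0.054 without control replicate 2. Among the libraries with Xist the knockout was above both controls, at 47.6 against a mean of 41.2 CPM. Among those without it the knockouts averaged 37.1 CPM, below the 65.2 CPM of control replicate 2, the only control there.

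Runx1, which is needed to form the first blood stem cells and later for platelets, had 88.5, 125 and 82.5 CPM in the controls and 77.4, 111, 94.8 and 110.0 CPM in the knockouts. The groups overlapped, and their means were 98.6 and 98.3 CPM. The log2 fold change was -0.0046, with a 95% interval from -0.38 to 0.37, and it was 0.20 without control replicate 2. These counts cover the whole gene and so do not separate the transcripts of its 2 promoters. In the annotation 106 exon bases of Runx1 overlap an antisense gene, and whether the counting used strand is not given in the sources used here. Nfe2, a leucine zipper factor that drives platelet release and binds globin enhancers, had 91.2, 114 and 101 CPM in the controls and 77.9, 92.7, 112 and 91.4 CPM in the knockouts. The groups overlapped for Nfe2 too, at a log2 fold change of -0.13 (95% interval -0.41 to 0.15).

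Of 6 genes for the partners and relatives of NFE2, 0 passed (edgeR, 1 lower unadjusted, 0 by DESeq2 or limma-voom). Bach1, a repressor at sites that NFE2 also binds, had 56.1, 59.7 and 54.2 CPM in the controls and 46.7, 51.2, 36.4 and 46.2 CPM in the knockouts (edgeR adjusted p = 0.328), with every knockout below every control. Mafk, a small Maf protein that pairs with NFE2, had 59.9 ± 2.2 and 64.8 ± 1.5 CPM, and there every knockout was above every control (edgeR adjusted p = 0.613).

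Megakaryocyte and platelet genes gave 0 calls among 21 tested (edgeR, 0 higher and 2 lower unadjusted, 0 by limma-voom), and DESeq2 called 1 lower. Their median log2 fold change was -0.28, with 18 estimated lower, and it was 0.034 without control replicate 2. Selp, the P-selectin of platelets and blood vessels, had 3.0, 4.35 and 1.79 CPM in the controls and 0.874, 0.948, 0.332 and 0.780 CPM in the knockouts (edgeR adjusted p = 0.069, DESeq2 adjusted p = 5.55e-04). Ppbp, a platelet chemokine, had 165, 272 and 150 CPM in the controls and 37.0, 111, 25.6 and 77.8 CPM in the knockouts (edgeR adjusted p = 0.177). Both genes had every knockout below every control.

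Across libraries, the mean log2 CPM of the 21 megakaryocyte genes was 5.76, 6.51 and 5.61 in the controls, against 5.26, 6.22, 4.74 and 5.80 in the knockouts. Its highest library, control replicate 2, and its lowest, knockout replicate 3, were also those of Fli1. The mean log2 CPM of the 31 erythroid genes was 7.39, 6.79 and 7.43 in the controls, against 7.41, 7.49, 7.55 and 7.31 in the knockouts. Its lowest library, control replicate 2, and its highest, knockout replicate 3, were also those of Gata1, Klf1 and Gfi1b. The log2 ratio of Gata1 to Fli1 per kb of exon was 2.58, 1.67 and 2.59 in the controls, against 2.88, 2.65, 3.33 and 2.60 in the knockouts, and all knockouts lay above all controls, with a gap of 0.0075 between the nearest libraries.

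**Figure D3:**
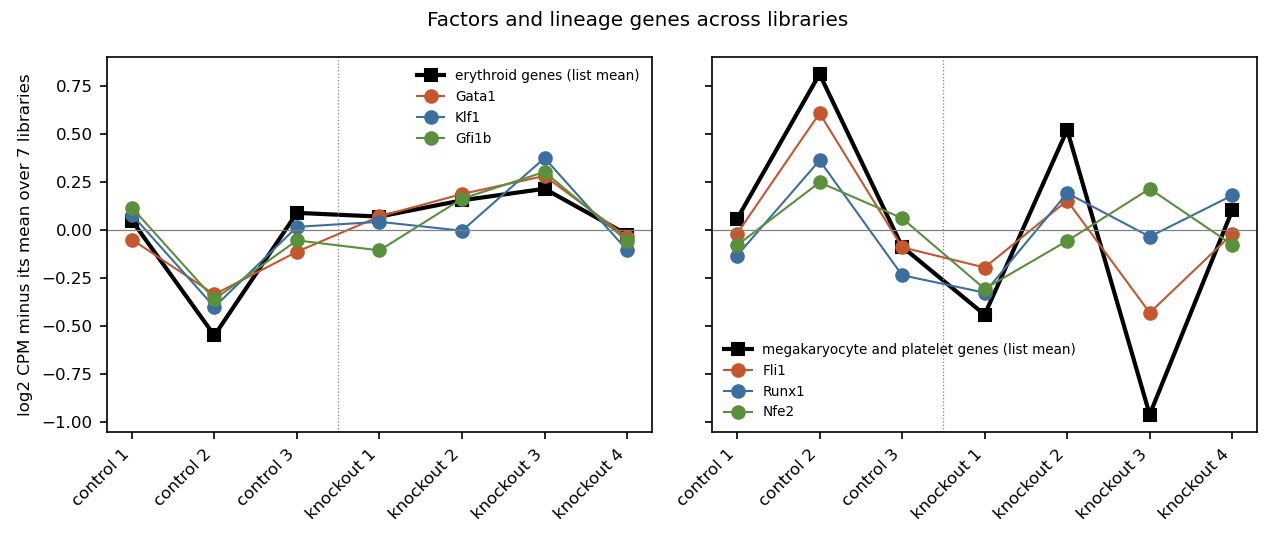
Log2 CPM minus its mean over the 7 libraries (y axis) for Gata1, Klf1 and Gfi1b with the mean of 31 erythroid genes (left) and for Fli1, Runx1 and Nfe2 with the mean of 21 megakaryocyte genes (right), by library. Control replicate 2 is lowest on the left and highest on the right, and knockout replicate 3 is highest on the left and lowest on the right for Fli1 and the megakaryocyte genes.

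Factors related to the 10 or acting beside them in progenitors gave 1 call. Gfi1, the granulocyte relative of Gfi1b, fell from 32.2, 59.9 and 41.1 CPM in the controls to 14.9, 12.1, 16.3 and 14.6 CPM in the knockouts, a log2 fold change of -1.62 (SE 0.20, edgeR adjusted p = 0.0097). It was the only one of 12 tested relatives to pass, and without knockout replicate 2 its adjusted p was 0.0509 (log2 fold change -1.54). Its paralog Gfi1b had no such fall, with the interval given above. Ets1, an ETS relative of Fli1, had 26.4 ± 6.8 and 18 ± 1.9 CPM, and Runx2, a relative of Runx1, had 17.9 ± 7.7 and 11.3 ± 2.1 CPM, neither past the edgeR test (adjusted p = 0.271 and 0.406). Gata3, a T cell member of the GATA family, had 1.15 to 1.56 CPM in the controls, against 1.63 to 1.75 CPM in knockout replicates 1, 2 and 4. Its 3.22 CPM in knockout replicate 3 came in the library that held the Cd3e reads.

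Of 9 other progenitor factors 0 passed (edgeR, 0 higher and 1 lower unadjusted, 0 by DESeq2 or limma-voom). Spi1, which encodes the myeloid factor PU.1 and is known to oppose GATA1, had 63.7, 103 and 74.1 CPM in the controls and 42.8, 50.5, 75.8 and 50.7 CPM in the knockouts (log2 fold change -0.54, edgeR adjusted p = 0.386). Knockout replicate 3 lay within the controls and the other knockouts below them. The log2 ratio of Gata1 to Spi1 per kb of exon was 1.62, 0.64 and 1.34 in the controls, against 2.31, 2.19, 1.70 and 1.96 in the knockouts, with all knockouts above all controls, a pair chosen after the design was fixed. Myb, a factor of dividing progenitors, had 349 ± 42 and 293 ± 36 CPM. The 16 neutrophil genes summed to 5040, 8961 and 7225 CPM in the controls and 1696, 2245, 3861 and 2121 CPM in the knockouts, and 7 of them fell (edgeR), a count that was 2 without control replicate 3 or knockout replicate 2, 3 without control replicate 2 or knockout replicate 1 and 4 without knockout replicate 4. Macrophages also express Spi1, and their 14 genes summed to 436, 317 and 384 CPM in the controls, against 163, 191, 236 and 250 CPM in the knockouts, so that all knockouts lay below all controls. Their median log2 fold change was -0.97. Of the 14, 9 were lower at an edgeR unadjusted p under 0.05, and DESeq2 called 7 lower. In the edgeR test 1 fell, Siglec1, a sialic acid receptor of macrophages (log2 fold change -3.86, adjusted p = 0.0081). Its levels were low, at 2.32 to 4.32 CPM in the controls and 0.0546 to 0.406 CPM in the knockouts. The edgeR count of macrophage genes was 0 without control replicate 3 and 2 without control replicate 2 or knockout replicate 1. The 7 eosinophil genes summed to 280 to 618 CPM in the controls and to 182 to 679 CPM in the knockouts, with overlapping groups. Of the 6 that were tested 1 fell (edgeR), Epx, the eosinophil peroxidase, from 61.9 ± 22.3 to 3.39 ± 1.06 CPM (log2 fold change -4.20, adjusted p = 0.0013). The part of the neutrophil, macrophage and eosinophil levels in the ratio and in the estimates for Gata1 and Zfpm1 was not tested.

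Between genes, levels were compared per kb of exon in the GENCODE M21 annotation. In the controls Klf1 was highest at 157 ± 27 CPM per kb, followed by Lmo2 at 117 ± 6, Zfpm1 at 96.9 ± 10.9 and Gata1 at 67.2 ± 6.8 CPM per kb. The control libraries of these 4 genes did not overlap with each other. Gata1, Gfi1b (61.3 ± 10) and Tal1 (57.3 ± 5.3 CPM per kb) overlapped with each other. Nfe2 stood below them at 34.2 ± 3.9 CPM per kb, followed by Fli1 (14.1 ± 4.0), Gata2 (11.6 ± 4.2) and Runx1 (8.20 ± 1.90 CPM per kb). Gata2 overlapped with Fli1 and with Runx1, which did not overlap with each other. In the knockouts Zfpm1, at 127 ± 4 CPM per kb, stood above the mean of Lmo2 at 114 ± 8, with overlapping libraries, and Gata2 at 16.3 ± 2.5 above Fli1 at 11.4 ± 1.9 CPM per kb, also with overlapping libraries. Klf1 exceeded 98.3% and Runx1 59.8% of the 13654 tested genes with a length. The exon lengths join all annotated transcripts, which lowers the value for genes with long alternative ends such as Runx1, at 12 kb.

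**Figure D4:**
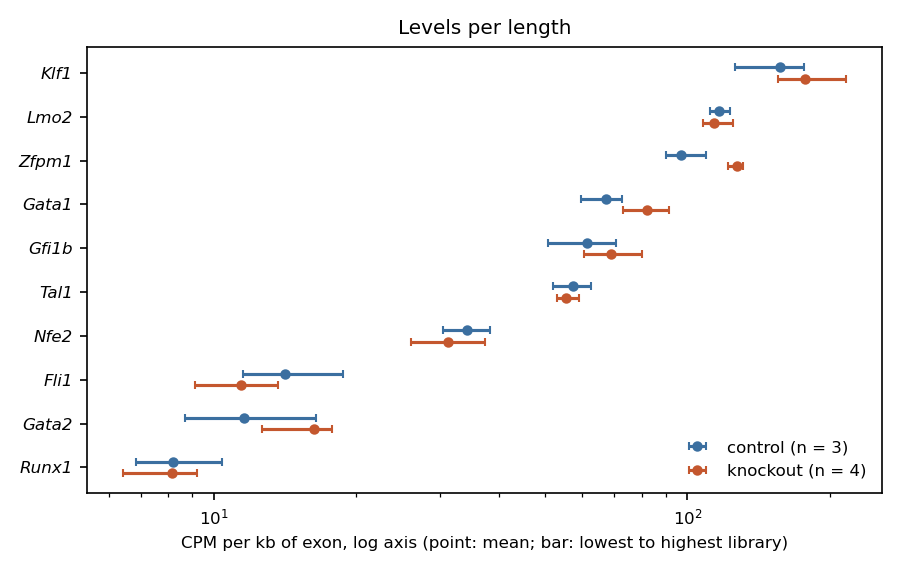
Level of each factor in CPM per kb of exon (x axis, log scale) in the 3 control and 4 knockout libraries; points are means and bars run from the lowest to the highest library. Klf1, Lmo2 and Zfpm1 are highest and Fli1, Gata2 and Runx1 lowest in both groups.

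The genes with the most similar pattern were found by the root mean square difference of mean-centred log2 CPM over the 7 libraries, among 10044 other genes averaging at least 5 CPM. Of the genes closest to Klf1, Slc29a1, a nucleoside transporter, lay at 0.043. Gata1 was closest to Pdlim1 (0.036) and Thumpd3 (0.043), and Zfpm1 to Timm23 (0.059) and Pmvk (0.067). Fli1 was closest to Zfp169 (0.065) and Wdfy4 (0.074), Gata2 to Gimap1 (0.088) and Jag2 (0.105), and Runx1 to Fam102a (0.049) and Map3k5 (0.070). The nearest genes were Eif4enif1 and Gclc for Tal1, Strbp and Chtf8 for Lmo2, Shf and Mrpl14 for Gfi1b and Gnai2 and Casp8 for Nfe2. Among the members themselves, Gata1 and Gfi1b were each other's closest at 0.096, as were Tal1 and Lmo2 at 0.080. The libraries share their group labels, depth and cell makeup, so likeness in pattern is a description of these 7 libraries.

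**Figure D5:**
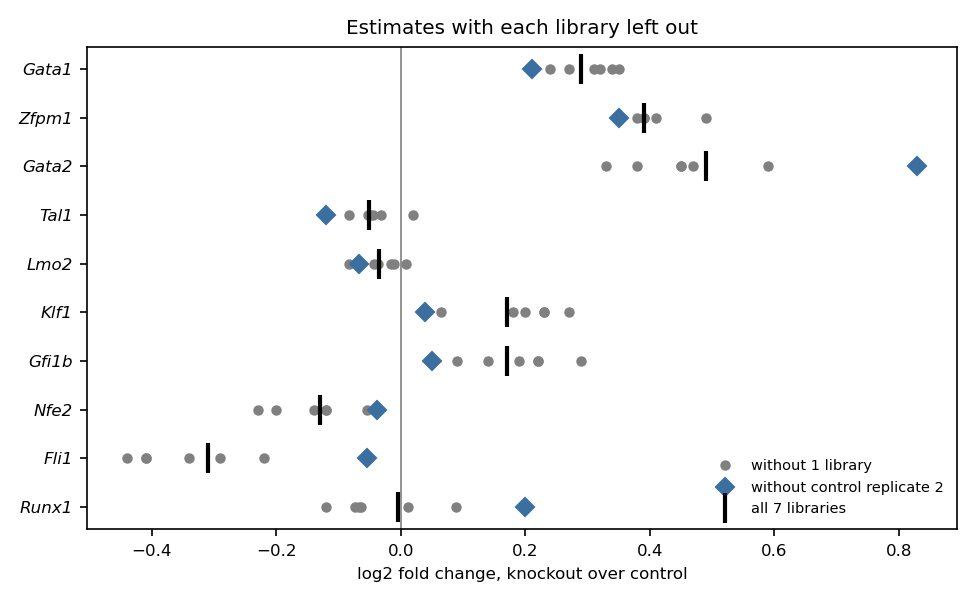
Log2 fold change of each factor, knockout over control (x axis), with all 7 libraries (bar) and with each library left out in turn (points); the diamond leaves out control replicate 2. Zfpm1 stays between 0.35 and 0.49 and Gata1 between 0.21 and 0.35, while Gata2 runs from 0.33 to 0.83 and Fli1 from -0.44 to -0.054.

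The spread over these fits differed between the factors. Zfpm1, Gata1, Gata2, Klf1 and Gfi1b were estimated higher and Fli1 and Nfe2 lower in all 7 fits that left out a library, and Tal1, Lmo2 and Runx1 changed sign in at least 1. In each of the 7 fits 0 of the 10 factors were called by edgeR, with between 2 and 3 at an unadjusted p under 0.05.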

How the data were processed

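RNA-seq libraries of 3 control and 4 knockout samples were analysed. Per the labels' protocols, polyA RNA was made into libraries with a TruSeq Stranded mRNA kit. The submitters' processing notes name the build mm10, the aligner HISAT2, the read counter featureCounts and DESeq2, without their order. The authors deposited whole-number read counts per gene, not normalised. For the tool versions, the annotation and the strand setting, the sources used here give nothing. The authors' deposited comparison table holds, per the file headers, log2 fold changes with standard errors, a score (the DESeq2 statistic), p-values with adjusted p-values, and normalised counts, a signal obtained with 1 size factor per library.

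Counts were filtered with edgeR's filterByExpr, scaled by TMM and tested with the quasi-likelihood F test (edgeR 4.0.16, R 4.3.3) over all 7 libraries, with group as the only term and Benjamini-Hochberg adjustment over 14679 genes at 0.05. SE is the absolute log2 fold change divided by the square root of F, and 95% intervals use the fit's degrees of freedom. CPM use TMM-scaled totals, and log2 CPM a prior count of 2. On simulated counts 3.65% of calls were unchanged genes. Libraries of a group differed by far more than counting noise (chi-square per degree of freedom of 8.5 to 42.0). Exon lengths and overlaps came from GENCODE M21 on GRCm38, the assembly that mm10 names, and not from RefSeq as first planned; promoter windows came from RefSeq. Of 217 list entries 216 were found, 1 under an older symbol.

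The members, gene lists and tests were chosen with earlier results of these data known. Named genes are the 10 members, Brd9, Xist, TAL1 complex partners, called list members or up to 4 list members with the smallest p, and the 2 genes most like each member in pattern. Cd3e, the untested lineage markers, Gata3, Kdm1a, Mafk, Hba-a1 and Hba-a2 were named after their values were seen. Alternatives were DESeq2 size factors, total counts, no filter, a mean of at least 1 CPM, DESeq2 1.42.0, limma-voom (limma 3.58.1), a replicate block, Xist as covariate and leaving out each library. Some results that fell under these rules are not reported here.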

Additional observations from a re-analysis of the deposited data

Results flagged for a closer look

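Gata2 was lower in knockout replicate 1, at 68.2 CPM, than in the other knockouts, at 92.4 to 96.0 CPM, a gap of 0.871 of the group's range. The mean log2 CPM of the 7 corepressor genes was 7.72 in knockout replicate 4 against 7.79 to 7.80 in the other knockouts, a gap of 0.895 of the range. Chance sets apart about 1 in 20 groups of 4 in this way, and 31 values were checked. The causes were not tested.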

How the results depend on the processing

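For the 10 factors, 0 calls were made under every alternative except DESeq2, which called 1, Zfpm1 (log2 fold change 0.39). Estimates changed sign for Tal1 with the Xist covariate (0.0236) and for Runx1 with limma-voom (0.0054). Over the fits that left out a library they ran from -0.12 to 0.019 for Tal1, from -0.12 to 0.20 for Runx1, from -0.098 to 0.085 for Ldb1 and from -0.084 to 0.0086 for Lmo2, and the causes were not tested. Over all tested genes, the 82 calls became 228 without filtering, 386 with DESeq2, 126 with the replicate block and 52 with the Xist covariate, and 20 to 120 over the fits without single libraries (20 without control replicate 3, 21 without knockout replicate 2). With no filter, calls numbered 1 erythroid, 2 megakaryocyte, 1 stem cell, 1 endothelial, 5 macrophage and 1 immediate early gene. With DESeq2 they numbered 7 erythroid, 1 megakaryocyte, 1 stem cell, 1 endothelial, 7 macrophage and 1 immediate early gene. With the replicate block they numbered 3 megakaryocyte, 1 stem cell, 1 endothelial and 1 mature lineage gene. Without single libraries, calls ran from 0 to 1 among the family relatives, from 0 to 2 among macrophage genes and from 2 to 10 among neutrophil genes.

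Replicate numbers are shared between groups. The deviations of same-numbered libraries had correlations of 0.17, -0.022 and -0.0050 for replicates 1 to 3. The 0.17 was the highest of all pairs, whereas control replicate 2 correlated best with knockout replicate 3. No pairing by number was seen across the replicates, but 3 libraries per group are too few to decide whether the numbers pair them. With the replicate block, fitted on replicates 1 to 3, the log2 fold changes were 0.40 for Zfpm1, 0.35 for Gata1, 0.49 for Gata2 and -0.33 for Fli1 (edgeR adjusted p = 0.165 for Fli1). With 3 and 4 libraries, differences of the size estimated for these factors could be missed. The recovery of 37.2% at 1.5-fold in simulation was for genes drawn at random from all tested genes. Recovery at the levels and fold changes of these factors was not simulated.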
